A study of Mus musculus with 2 samples.

Results

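Transcripts of 10 genes around DARPP-32, protein kinase A and the phosphatases of the striatum were followed in mice with and without the dopamine D2 receptor. The genes were Ppp1r1b, Arpp19, Arpp21, Ptpn5, Prkaca, Prkacb, Prkar1a, Prkar1b, Prkar2b and Ppp3ca, taken from a fixed list of names, out of 18193 genes that the arrays measured by a probe set of their own. All 31 probe sets that the platform annotation pairs with 1 of these genes alone were used, of 45101 on the array. The wild-type sample and the Drd2-/- sample, 1 array each, were striatum of naïve C57BL/6 males aged 2 months, dissected by hand. The labels give neither the construction of the Drd2-/- allele nor the number of animals behind each sample. With 1 array per genotype no difference could be tested and no value has a replicate error. All values below therefore describe these 2 arrays.

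DARPP-32, the product of Ppp1r1b, is a small phosphoprotein of striatal projection neurons. When protein kinase A (PKA) phosphorylates it, it inhibits protein phosphatase 1 (PP1). The phosphatase calcineurin removes that phosphate. Dopamine raises cyclic AMP and PKA activity in neurons with D1 receptors and lowers them in neurons with D2 receptors, so the proteins studied here stand directly below the deleted receptor. PKA itself is a complex of catalytic subunits held inactive by regulatory subunits until cyclic AMP binds.

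Signals are intensities on a linear scale, scaled per array by the authors. Trimmed means of all probe sets were 500.0 units on each array, and 57.9% of probe sets were called present in wild type and 58.7% in Drd2-/-. The deleted gene checked the labels: Drd2 had a signal of 3234.8 units (present) under the wild-type label and 27.4 units (absent) under the Drd2-/- label. In the authors' deposited table of comparisons the same signals stand under the opposite genotype names at all 45101 probe sets. Directions here follow the sample labels, and that table's log ratios were turned to match. Under its column names every sign, and every call of increase or decrease, would be reversed. All 9 measured markers of striatal projection neurons were detected on the arrays, at a median log2 ratio of -0.10. Of 8 detected cortical neuron markers, 4 were at least 1.5-fold lower in Drd2-/-, as were 3.45% of all detected genes. These 4 were Neurod6 (-2.51), Tbr1 (-2.12), Slc17a7 (-1.62) and Rtn4rl2 (-0.82), none above 391.6 units. The summed signal over all 8 was 14102 units in the wild type and 14492 in Drd2-/-. Most of that sum came from Nrgn (5189 and 5474 units), Lamp5 (4727 and 5334) and Mef2c (3100 and 3211), which did not read lower. The sum therefore says little about the 4 lower markers. Emx1 was the sole measured cortical marker called present on neither array. None of the measured cortical markers had a signal of 0.

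The core genes of this pathway read much alike on both arrays. When each gene was represented by its brightest probe set, the log2 ratio of Drd2-/- over wild type ran from -0.38 for Ptpn5 to 0.23 for Prkar2b. The median of the 10 genes was -0.09, beside -0.07 over all 12588 detected genes. After intensity-dependent centring these medians were 0.04 and -0.08. None of the 10 representatives was 1.5-fold apart in either direction. Of all detected genes 9.5% were that much higher and 3.45% that much lower, but these include many dimmer genes. All 10 representatives were in the brightest of 4 equal groups of detected probe sets by mean signal. In that group, with a median log2 ratio of -0.12, only 3.93% of probe sets were that much higher and 0.884% that much lower. Having none of 10 past 1.5-fold therefore does not set these genes apart from other probe sets as bright. At the level of probe sets, 30 of 31 were called present on at least 1 array. Of these 30, 25 lay within 1.5-fold, 4 lay at least 1.5-fold above wild type in Drd2-/- and 1 as far below. Over all 28062 detected probe sets the shares past 1.5-fold were 19.7% higher and 3.28% lower. Higher probe sets made up 85.7% of all those past 1.5-fold. That share was 74.8% after median centring, 63.1% after quantile normalization and 67.8% after intensity-dependent centring, and it was 89.1% with 32 units added to both arrays and 90.8% by the authors' log ratio. In bulk tissue, fewer cells of a type and less RNA per cell cannot be told apart.

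**Figure D1:**
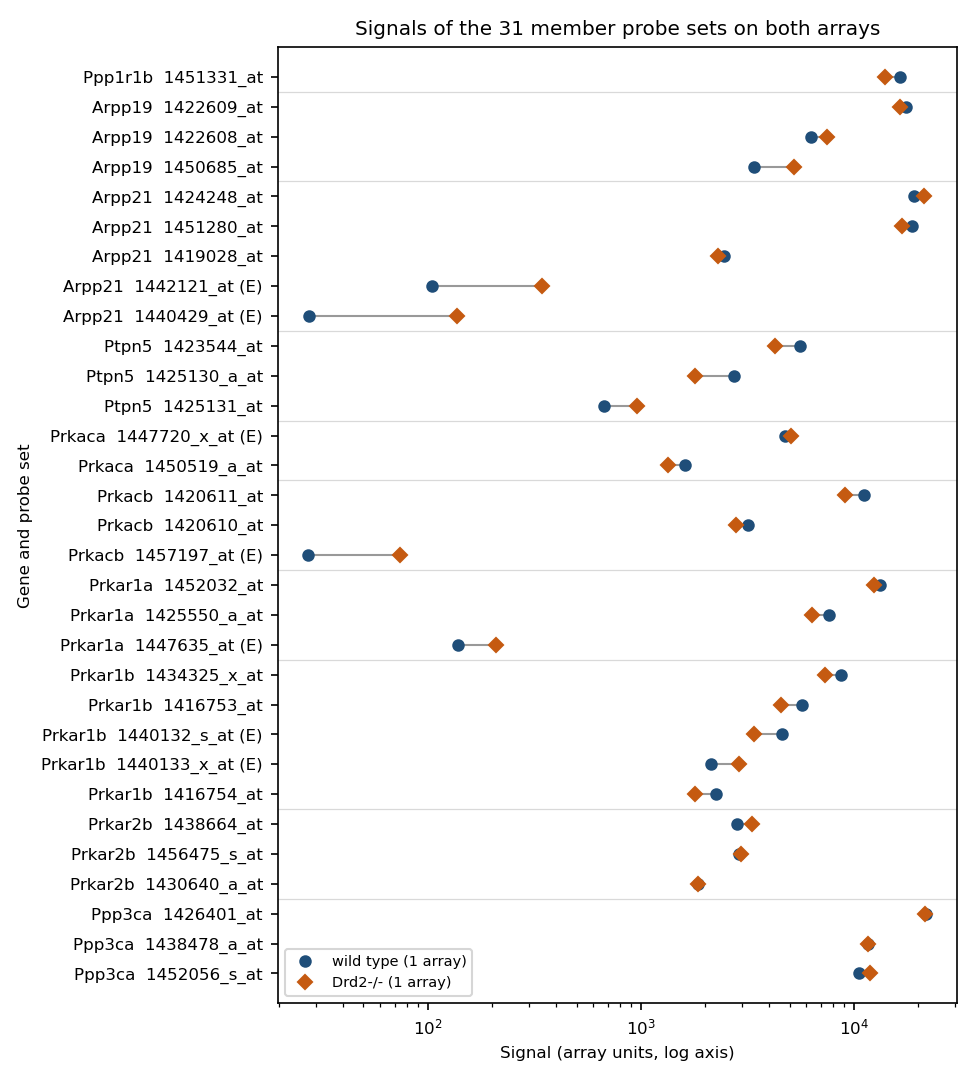
Signals in array units (log axis) of the 31 probe sets of the 10 genes, with a circle for the wild-type array and a diamond for the Drd2-/- array; (E) marks probe sets designed on ends of expressed sequence tags. The symbols of most probe sets lie close together, and the widest gaps are at 2 probe sets of Arpp21 and 1 of Prkacb with signals of 343 units or less.

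Ppp1r1b was measured by a single probe set, designed on a full-length message. It read 16454 units in the wild type and 14019 units in Drd2-/-. The Drd2-/- signal was 1.17-fold lower, a log2 ratio of -0.23. The median over all probe sets in its group, the brightest of the 4, was -0.12. The authors' deposited table gave -0.2, with limits of -0.3 and -0.1, and called it unchanged. Over the scalings tried the ratio stayed below 0, between -0.34 and -0.10. Ppp1r1b is a marker of both kinds of striatal projection neuron. Penk and Gpr6, the 2 measured markers of D2-type neurons beside the deleted gene, read -0.01 and -0.06. All 3 markers of D1-type neurons were below 0, as were 57.6% of all detected genes, with Drd1 at -0.28, Tac1 at -0.07 and Pdyn at -0.82. Pdyn alone was at least 1.5-fold lower, as were 3.45% of all detected genes. For Pdyn the authors' deposited table gave -0.5, short of 1.5-fold, with limits of -0.9 and -0.2, and called it unchanged. The other detected probe set of Drd1 read -0.02 and that of Tac1 1.12. The summed signal of the D1-type markers was 23007 units in the wild type and 20382 in Drd2-/-, and that of the D2-type markers 28932 and 28510 units. The part of these markers in the Ppp1r1b value was not tested.

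Arpp19 and Arpp21 encode further phosphoproteins of the cyclic AMP pathway that PKA phosphorylates. The Arpp19 protein inhibits protein phosphatase 2A (PP2A) once kinases other than PKA, such as that encoded by Mast3, phosphorylate it. Arpp21 is a protein enriched in striatal projection neurons that regulates calmodulin signalling. Both genes lie on chromosome 9, as does Drd2, with 256 protein-coding genes between Drd2 and Arpp19 and 610 between Drd2 and Arpp21 by the gene order of RefSeq (GRCm38.p6).

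The 3 probe sets of Arpp19 differed in ratio although all were designed on full-length messages. 1422609_at, the brightest, read 17657 units in the wild type and 16504 in Drd2-/-, a log2 ratio of -0.10. 1422608_at read 6295 and 7482 units, or 0.25. 1450685_at read 3412 and 5252 units, which is 1.54-fold higher in Drd2-/- (0.62), and it was the sole one of the 3 past 1.5-fold (0.52, short of it, after median centring). The authors' deposited table gave 0.6 for this last probe set with limits of 0.5 and 0.6, called increased, and 0 and -0.1 for the others, both called unchanged. A single direction for Arpp19 is therefore not given by these arrays.

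Arpp21 showed the widest spread of all members. Its 3 bright probe sets, all designed on full-length messages, were close to equal on the arrays. 1424248_at read 19114 units in the wild type and 21268 in Drd2-/- (0.15). 1451280_at read 18801 and 16909 units (-0.15), and 1419028_at read 2465 and 2300 units (-0.10). None of these 3 was more than 1.12-fold apart, and the authors' deposited table called all of them unchanged at -0.1, -0.1 and -0.2. The other 2 probe sets stood far off. 1442121_at read 104.9 units in the wild type and 343.2 in Drd2-/-, 3.27-fold higher (1.71). 1440429_at read 27.7 and 138.0 units, 4.98-fold higher (2.32), with detection p-values of 0.030 and 0.00073. The authors' deposited table called both increased, at 1.9 (limits of 1.6 and 2.2) and 2.2 (limits of 1.8 and 2.6). Over the scalings they stayed between 1.45 and 2.32, so their direction did not depend on the scaling, while the brightest probe set of the gene ran from -0.10 to 0.29.

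Both of these dim Arpp21 probe sets were designed on expressed sequence tags (ESTs, single-pass reads of cDNA clones) and belong to the tier that the array's descriptions call ConsEnd. Their place relative to the exons of Arpp21 was not analysed here. Across the whole array, 44.2% of 5834 detected probe sets of this design were at least 1.5-fold higher in Drd2-/-, against 13.3% of the 22228 others, and 3.45% and 3.24% were as much lower. Their median log2 ratio was 0.47, beside -0.02 for the others. The difference between the designs was seen within each of 4 equal groups by mean signal. Among the dimmest probe sets 53.2% of the EST ConsEnd design and 33.5% of the others were at least 1.5-fold higher, and among the brightest 8.41% and 3.71%. The part of probe set design in the Arpp21 values was not tested.

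**Figure D2:**
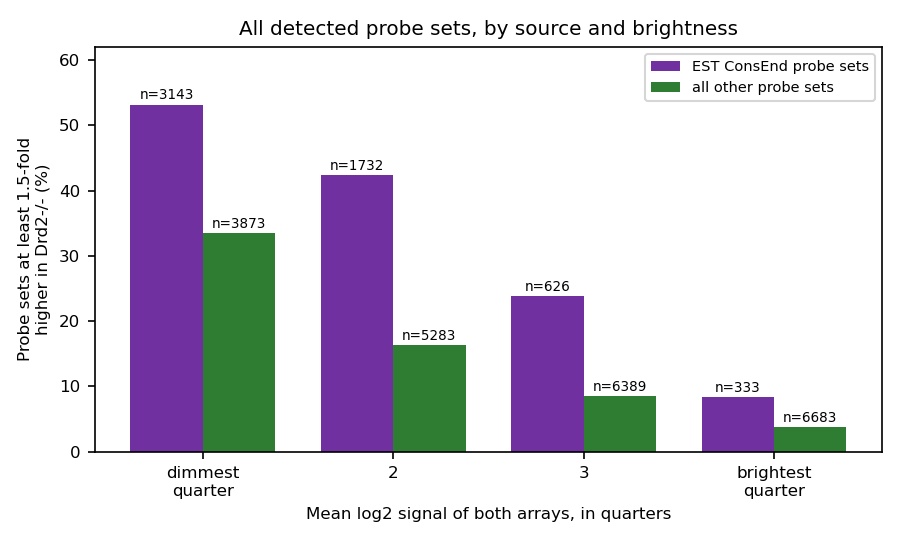
Share of all detected probe sets that were at least 1.5-fold higher in Drd2-/- (percent), in 4 equal groups by mean log2 signal, for EST ConsEnd probe sets and all others, with the number of probe sets over each bar. The share falls with brightness from 53.2% to 8.41% and from 33.5% to 3.71%, and the EST ConsEnd bar is the taller in each group.

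Among the 10 genes, 7 probe sets were of the EST ConsEnd design and 6 of these were detected. Of the 6, 5 had a ratio above 0, as did 75.7% of that design on the array, and 3 were at least 1.5-fold higher, a share near the 44.2% of that design. Of the 24 probe sets of other designs, all detected, 16 had a ratio below 0, as did 52.5% of the other designs on the array, 1 was at least 1.5-fold higher and 1 as much lower. In the brightest of the 4 groups, which held 26 of the 30, 1 probe set was at least 1.5-fold higher and 1 as much lower, where 3.93% and 0.884% of all probe sets in that group were.

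**Figure D3:**
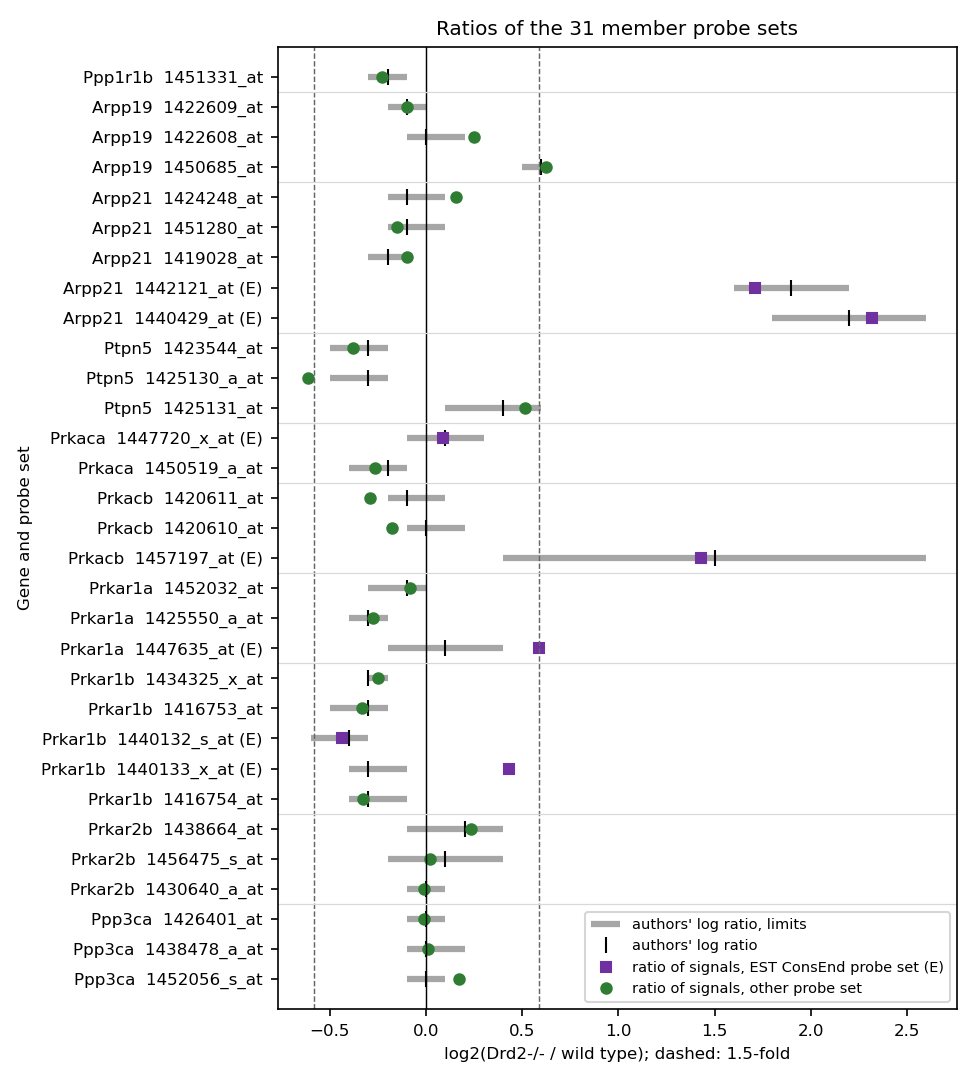
Log2 ratio of Drd2-/- over wild type for the 31 probe sets from the signals (squares for the EST ConsEnd design, circles for the others), with the authors' log ratio (tick) and its limits (grey bar), turned to the sample labels; dashed lines mark 1.5-fold. The Arpp21 squares at 1.71 and 2.32 stand apart, as does the Prkacb square at 1.43, from the probe set not detected. The Prkar1b points lie left of 0 except 1 square at 0.43, and the Ppp3ca points lie between -0.01 and 0.17.

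Ptpn5 encodes STEP, the striatal-enriched tyrosine phosphatase, which acts on kinases of the MAP kinase family and on glutamate receptor subunits, and whose activity PKA reduces. Its brightest probe set 1423544_at read 5582 units in the wild type and 4287.5 in Drd2-/-, a 1.30-fold lower signal (-0.38). 1425130_a_at read 2754 and 1802 units, 1.53-fold lower (-0.61), and was the sole member probe set at least 1.5-fold lower. In the authors' deposited table both had -0.3 with limits of -0.5 and -0.2, called marginally decreased, so the value past 1.5-fold was not seen there, nor after quantile normalization (-0.56). The remaining probe set, 1425131_at, pointed the other way, at 673.8 units in the wild type and 962.1 in Drd2-/- (0.51), and was called increased in the authors' deposited table at 0.4. Each of the 3 kept its sign under all scalings, so the probe sets of Ptpn5 disagree in direction. The suffix _a_at marks, in the array maker's naming, a probe set shared by several transcripts of the same gene. In Drd2-/-, 5 of 8 detected markers of cortical neurons had a ratio below 0, where 57.6% of all detected genes did. At least 1.5-fold lower were 4 of the 8, beside 3.45% of all detected genes. The part of these markers in the Ptpn5 values was not tested.

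The upstream DNA of the members is shown because PKA acts on transcription through CREB, a factor that binds the cyclic AMP response element, TGACGTCA in its full form and TGACG in its short form. The 250 bases before each annotated start were read from the RefSeq promoter table (GRCm38.p6), which matched 8 of the 10 genes with 31 starts; Ppp1r1b and Ppp3ca are not in it. Searched on both strands, the full form was found before 1 of these 31 starts, that of Prkar1a, and before 1.55% of all 32851 starts. The short form, which every full form contains, was found before 8 of the 31 starts (25.8%) and before 17.8% of all starts. The 8 starts belong to Arpp21, Prkaca, Prkacb, Prkar1a and Prkar1b. A match is a description of the letters and not a bound site. In the sequences below capitals mark the full form for Prkar1a and the short form, on either strand, for Prkaca and Arpp21, and positions count back from the base before the start as -1.
Prkar1a, chr11:109650699-109650948, plus strand, match beginning at -49: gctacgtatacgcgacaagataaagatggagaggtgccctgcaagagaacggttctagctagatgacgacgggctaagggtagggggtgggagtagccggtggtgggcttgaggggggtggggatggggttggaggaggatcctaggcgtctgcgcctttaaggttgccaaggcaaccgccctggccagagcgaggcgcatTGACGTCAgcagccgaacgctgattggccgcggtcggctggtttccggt
Prkaca, chr8:83972728-83972977, plus strand, matches beginning at -120 and -6: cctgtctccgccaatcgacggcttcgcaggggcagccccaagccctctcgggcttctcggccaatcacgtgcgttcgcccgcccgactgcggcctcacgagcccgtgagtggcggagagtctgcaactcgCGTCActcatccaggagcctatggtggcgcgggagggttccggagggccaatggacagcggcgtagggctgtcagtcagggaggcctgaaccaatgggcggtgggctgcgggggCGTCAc
Arpp21, chr9:112217262-112217511, minus strand, match beginning at -52: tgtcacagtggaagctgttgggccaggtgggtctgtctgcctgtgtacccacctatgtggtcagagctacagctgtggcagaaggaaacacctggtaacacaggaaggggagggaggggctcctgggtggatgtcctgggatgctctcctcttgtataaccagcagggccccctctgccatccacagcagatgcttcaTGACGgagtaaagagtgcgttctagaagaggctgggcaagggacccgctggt
The genes with the full or the short form did not read alike: the representative ratios were -0.08 for Prkar1a, 0.09 for Prkaca, 0.15 for Arpp21, -0.29 for Prkacb and -0.25 for Prkar1b. Which start produced the measured transcripts was not measured here.

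The catalytic subunits of PKA, which phosphorylate DARPP-32, differed little. For Prkaca, the alpha subunit, 1447720_x_at read 4766 units in the wild type and 5064 in Drd2-/- (0.09), and 1450519_a_at read 1606 and 1338 units (-0.26). For Prkacb, the beta subunit, 1420611_at read 11110 and 9086 units, 1.22-fold lower (-0.29), and 1420610_at read 3181 and 2815 units (-0.18). The authors' deposited table gave the pair of Prkacb probe sets only -0.1 and 0, and called these and the Prkaca probe sets unchanged. The third Prkacb probe set, the EST ConsEnd probe set 1457197_at, was called absent in wild type at 27.6 units and marginal in Drd2-/- at 74.3 units. It was the sole member probe set not detected, and its ratio of 1.43 rests on signals near background, with limits of 0.4 and 2.6 in the authors' deposited table.

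The regulatory subunits bind and restrain the catalytic ones. Prkar1b, the neuronal type I beta subunit, read lower in Drd2-/- by 4 of its 5 probe sets. 1434325_x_at read 8751 units in the wild type and 7355 in Drd2-/- (-0.25). 1416753_at read 5725 and 4546 units (-0.33), 1416754_at read 2265 and 1804 units (-0.33), and 1440132_s_at read 4614 and 3410 units (-0.44). These 4 stayed below 0 under every scaling tried, between -0.54 and -0.13. All 5 Prkar1b probe sets were in the brightest of the 4 groups by mean signal. The median log2 ratio over all probe sets in that group was -0.12. The remaining probe set 1440133_x_at read 2142.5 and 2888 units, higher in Drd2-/- at 0.43. For it the authors' deposited table gave the opposite sign, -0.3 with limits of -0.4 and -0.1. By the authors' deposited table all 5 Prkar1b probe sets were thus lower, at -0.3 for 4 and -0.4 for 1440132_s_at, with 2 called decreased, 1 marginally decreased and 2 unchanged. The sizes were small, at most 1.35-fold from the signals. In the array maker's naming the suffixes _x_at and _s_at mark probe sets that may also bind related or several transcripts. Of the detected cortical neuron markers, 5 of 8 had a ratio below 0, near the 57.6% of all detected genes. At least 1.5-fold lower were 4 of the 8, beside 3.45% of all detected genes. The part of these markers was not tested for Prkar1b either.

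Prkar1a, the widely expressed type I alpha subunit, read 13238.5 units in the wild type and 12493 in Drd2-/- by 1452032_at (-0.08). 1425550_a_at read 7678 and 6352 units (-0.27) and was called decreased in the authors' deposited table, at -0.3. The EST ConsEnd probe set 1447635_at read 139.6 and 209.9 units (0.59), just past 1.5-fold. It fell short of that in every other version of the ratio, and the authors' deposited table gave 0.1 for it and called it unchanged. Prkar2b, the type II beta subunit that predominates in striatum, was close to equal. Its signals were 2842 and 3339 units by 1438664_at (0.23), 2909 and 2946 units by 1456475_s_at (0.02), and 1865 and 1853 units by 1430640_a_at (-0.01). The authors' deposited table called all 3 unchanged.

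Ppp3ca encodes the catalytic A alpha subunit of calcineurin, the calcium-dependent phosphatase that reverses the PKA phosphorylation of DARPP-32. Its signals differed little. 1426401_at read 21854 units in the wild type and 21673 in Drd2-/- (-0.01), 1438478_a_at read 11630 and 11699 units (0.01), and 1452056_s_at read 10614 and 11939 units (0.17). The largest of these is 1.12-fold, and the authors' deposited table gave 0 for all 3, called unchanged.

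Over the 30 detected member probe sets, the authors' deposited table called 4 increased, 3 decreased, 3 marginally decreased and 20 unchanged. On the whole array that table called 14.8% of detected probe sets increased, 3.94% decreased, 0.502% marginally decreased and 80% unchanged. The calls of increase belonged to Arpp21 (2 probe sets), Arpp19 and Ptpn5, and those of decrease, marginal ones included, to Prkar1b (3), Ptpn5 (2) and Prkar1a. The ratio from the signals and that of the authors' deposited table were within 0.1 of each other at 19 of the 30, and of opposite sign at 2, 1 of Arpp21 and 1 of Prkar1b.

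The wider pathway was followed in 7 lists holding 93 other genes, of which 77 were detected. In Drd2-/-, 5 of them lay at least 1.5-fold above wild type and 2 as far below, where 9.5% and 3.45% of all detected genes did. The median over the 77 was -0.04, beside -0.07 for all detected genes. Each gene is given by its brightest probe set, so its other probe sets are dimmer. Of all detected probe sets in the dimmest of the 4 groups, 42.3% were at least 1.5-fold higher and 6.70% as much lower. In the second group these shares were 22.8% and 3.44%. Of the 208 detected probe sets of the pathway genes, 27 were at least 1.5-fold higher and 10 as much lower. Over all detected probe sets these shares were 19.7% and 3.28%. After median centring 0 genes of the other PKA list and 0 of the STEP list were at least 1.5-fold higher.

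Other PKA subunits, inhibitors and anchoring proteins had a median of 0.06 over 16 detected of 16 measured genes, with 2 at least 1.5-fold higher and 0 as much lower. Anchoring proteins hold PKA at its sites of action. Akap5, which places PKA and calcineurin together at the postsynaptic membrane, read 830.1 units in the wild type and 1256 in Drd2-/- (0.60), and its 2 other detected probe sets were also higher, at 0.34 and 0.72. Akap9, an anchor at the Golgi and centrosome, read 1681 and 2559 units (0.61), but its 3 other detected probe sets ran from -0.77 to 0.49. Akap8, a nuclear anchor, read 1265.5 and 1570.0 units (0.31). The authors' deposited table gave 0.6, 0.6 and 0.3 for these representatives of Akap5, Akap9 and Akap8, all called increased. The regulatory subunit Prkar2a read 739.1 and 654.5 units (-0.18) and the PKA inhibitor Pkia 3536.5 and 3668 units (0.05).

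PP1, the phosphatase that DARPP-32 inhibits, and its regulators had a median of 0.00 over 11 detected genes of 13 measured, with 0 at least 1.5-fold apart in either direction. Of the catalytic subunits, Ppp1cb read 5817 units in the wild type and 7911 in Drd2-/- (0.44), with all 3 of its other detected probe sets higher at 0.35 to 0.81. Ppp1ca read -0.35 and Ppp1cc -0.13 as log2 ratios. Ppp1r12a, a targeting subunit, read 1958 and 2544 units (0.38), its 3 other detected probe sets 0.18 to 0.51. The inhibitor Ppp1r11 read 2748 and 2081 units (-0.40), but its other detected probe set read -0.04. The authors' deposited table called Ppp1cb (0.5) and Ppp1r12a (0.4) increased and Ppp1r11 (-0.3) decreased.

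PP2A subunits, with the Arpp19 relative Ensa and the kinases of the Arpp19 family, had a median of -0.09 over 16 detected genes of 17, with 0 at least 1.5-fold apart in either direction. Mast3, a kinase that phosphorylates the shorter Arpp19 product in striatum, read 4231 units in the wild type and 3441 in Drd2-/- (-0.30), called decreased in the authors' deposited table at -0.3. Ppp2r2a read 7179 and 6172 units (-0.22), with its 2 other probe sets at 0.03 and 0.41, and Ppp2r5b 905.3 and 779.3 units (-0.22). The authors' deposited table called both unchanged, at -0.1 and 0. Ensa read 0.11 as a log2 ratio, and its other detected probe set -0.29.

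Other calcineurin subunits, its inhibitors and its NFAT targets had a median of -0.08 over 9 detected genes of 12 measured. Rcan1, an endogenous calcineurin inhibitor whose own transcription calcineurin drives through NFAT, read 2515 units in the wild type and 1657 in Drd2-/- (-0.60), the sole one at least 1.5-fold apart. Its other detected probe set read -0.05, and the authors' deposited table gave -0.1 for the first and called it unchanged, so the size for Rcan1 is not firm. The calcineurin subunits Ppp3cb and Ppp3r1 read 0.03 and -0.08 by their brightest probe sets, close to Ppp3ca. Their other detected probe sets did not read alike, as 4 of Ppp3cb ran from -0.74 to 0.29 and 1 of Ppp3r1 read 0.84. Nfatc1 read 237.8 and 187.5 units (-0.34) and Nfatc3 164.4 and 199.9 units (0.28). The authors' deposited table gave -0.4 for Nfatc1, called marginally decreased, and 0.1 for Nfatc3, called unchanged. The calmodulin genes were not analysed here.

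Kinases that phosphorylate DARPP-32 at sites other than that of PKA had a median of -0.15 over 8 detected genes, 7 of them below 0, where 57.6% of all detected genes were. The median ran from -0.25 under median centring, where that of all detected genes was -0.17, to -0.09 over the alternatives. Cdk5r2, an activator of Cdk5, read 1478 units in the wild type and 941.5 in Drd2-/- (-0.65), 1.57-fold lower, from a single probe set. The casein kinase genes Csnk1d and Csnk1e read -0.32 and -0.28, and all of their other detected probe sets, 4 and 2, were below 0 too. The authors' deposited table called Cdk5r2 (-0.5) and Csnk1d (-0.4) decreased and Csnk1e (-0.2) unchanged. Cdk5 and its main activator Cdk5r1 read -0.13 and -0.14.

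Substrates of STEP and related tyrosine phosphatases had a median of -0.02 over 12 detected genes, with 2 at least 1.5-fold higher. The AMPA receptor subunit Gria2 read 4225 units in the wild type and 6411 in Drd2-/- (0.60), its 2 other probe sets 0.86 and 1.23. The NMDA receptor subunit Grin2b read 1017 and 1308 units (0.36), from an EST ConsEnd probe set, its 2 other probe sets 0.01 and 0.32. Ptpn2, a broadly expressed tyrosine phosphatase, read 479.4 and 730.9 units (0.61), its 3 other probe sets 0.35 to 1.57. The authors' deposited table called Gria2 (0.4) increased, Grin2b (0.4) marginally increased and Ptpn2 (0.6) unchanged. The kinase substrates Fyn, Ptk2b and Mapk14 read -0.22, -0.17 and -0.16.

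CREB, its relatives and coactivators had a median of -0.11 over 5 detected genes of 6 measured. Creb1, the factor that PKA phosphorylates, stood apart with 401.6 units in the wild type and 781.4 in Drd2-/-, 1.95-fold higher (0.96). All 3 of its other detected probe sets, which were dimmer, were higher as well, at 0.70 to 1.56. For the representative the authors' deposited table gave 0.9 with limits of 0.7 and 1, called increased. Crem, a related factor with repressor forms, read 428.3 and 585.4 units (0.45), but its 2 other detected probe sets read -0.13 and -0.02. The coactivators Crtc1, Crtc3 and Crebbp read -0.15, -0.15 and -0.11, but the 2 other detected probe sets of Crtc1 read -0.04 and 0.80.

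**Figure D4:**
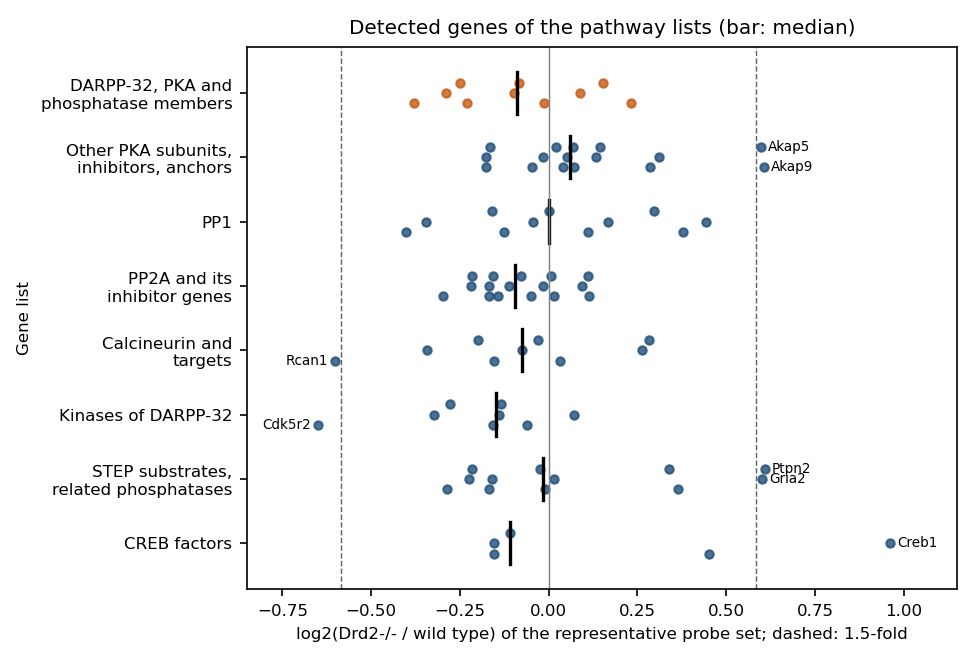
Log2 ratio of Drd2-/- over wild type for the representative probe set of each detected gene, by list, with the median as a bar and 1.5-fold as dashed lines. The 10 members at the top lie between -0.38 and 0.23, and Creb1 at 0.96 is the farthest of the named genes outside the dashed lines.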

How the data were processed

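Striatal RNA of 1 wild-type and 1 Drd2-/- sample was measured on Affymetrix arrays, per the labels' protocols. The authors deposited 1 linear signal intensity per probe set and array, scaled per array, per the file headers. They also deposited a detection p-value and call per array and, on the log2 scale, a Signal Log Ratio with limits and a change call. The change p-value compares arrays, not animals, and is not printed. The labels and headers name no software or settings. The comparison table's names oppose the sample labels, so each detection call went with the signal next to it, as in the value table. Log ratios and change calls were turned, so a deposited increase is given here as a decrease and the reverse.

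From these, log2 ratios of signals were computed after setting signals below 0.1 to 0.1 (Python 3.11.15, pandas 2.3.3). Genes came from the platform annotation, where 34945 probe sets had 1 gene, 932 several and 9160 none, beside 64 controls. All 10 members matched a RefSeq entry by Entrez number. A gene was represented by its brightest probe set (mean log2 signal), and detected meant present on at least 1 array. Probe set design was read from the deposited descriptions. With 1 array per genotype there was no test, and genes were counted past 1.5-fold. Having 2 arrays limits precision throughout. Named were all members, Drd2, and per list, the 3 detected genes farthest from equal signals. Other genes named from the lists (Prkar2a, Pkia, Ppp1ca, Ppp1cc, Ensa, Ppp3cb, Ppp3r1, Cdk5, Cdk5r1, Fyn, Ptk2b, Mapk14, Crtc3, Crebbp) and the marker genes were added to that rule with their values in view. The members and lists were chosen with earlier results of these data known. The calculation of the ratios, apart from the authors' log ratio, was run on simulated data. In these, very dim wild-type signals were raised and no trend with brightness was set, so they cannot speak for the dim probe sets. Alternatives were median centring, quantile normalization, intensity-dependent centring (lowess, span 0.2), 32 units added to both arrays, the authors' log ratio, the median of all detected probe sets of a gene, and other filters on detection.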

Additional observations from a re-analysis of the deposited data

How the results depend on the processing

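No paired analysis was possible because each genotype had 1 array, and no sample could be left out. Of 30 detected member probe sets, 6 stayed above and 12 below 0 in every version of the ratio, and 12 changed sign or read 0 in some version. Values that moved beyond the spread used here (the distance from the middle of the authors' limits to either limit for a gene, 0.1 for a median, 1.5 times for a count) are as follows. The cause was not tested. Median centring shifts every ratio by -0.11, and it gave -0.34 for Ppp1r1b, -0.20 for Arpp19, -0.36 for Prkar1b, -0.12 for Ppp3ca and -0.20 for the median of the members, with 2 member probe sets at least 1.5-fold higher. The list medians under it were -0.047 (other PKA genes), -0.11 (PP1), -0.20 (PP2A), -0.18 (calcineurin), -0.25 (kinases of DARPP-32), -0.12 (STEP substrates) and -0.22 (CREB factors), with 0 other PKA genes and 0 STEP substrates at least 1.5-fold higher. Quantile normalization gave -0.11 for Ppp1r1b, -0.13 for Prkar1b, 0.10 for Ppp3ca and 0.13 for PP1, with 0 member probe sets and 0 calcineurin genes at least 1.5-fold lower and 1 STEP substrate as much higher. Intensity-dependent centring gave -0.10 for Ppp1r1b, 0.038 for Arpp19, -0.14 for Prkar1b, 0.13 for Ppp3ca, 0.04 for the members' median and 0.12 for PP1, with 0 member probe sets and 0 calcineurin genes at least 1.5-fold lower. The authors' log ratio gave -0.10 for Arpp21, -0.10 for Prkacb, -0.10 for PP1 and 0.00 for CREB factors, with 0 member probe sets, 0 calcineurin genes and 0 kinases at least 1.5-fold lower and 1 STEP substrate as much higher. Adding 32 units left 1 other PKA gene and 1 STEP substrate at least 1.5-fold higher. The median over detected probe sets gave 0.25 for Arpp19, -0.33 for Prkar1b and 0.11 for PP1, with 1 other PKA gene and 1 PP2A gene higher and 0 calcineurin genes lower. Without the filter on detection, 1 PP1 gene and 1 PP2A gene were at least 1.5-fold higher and the CREB factors' median was 0.019. None of the 5 member probe sets past 1.5-fold changed sign in any version of the ratio. The dim probe sets of Arpp21, Prkacb and Prkar1a, at 27.6 to 343.2 units, had the lowest signals of the members, and signal over background limits them. The brighter Prkar1b probe sets 1416754_at and 1440133_x_at were also weakly detected, with detection p-values of 0.019 to 0.030.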
